A study of Mus musculus with 24 samples.

Results

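CD4+ T cells of wild type mice were compared before stimulation (0 h) and 3 h after anti-CD3/CD28 antibodies were applied, which gives the first wave of the transcriptional response to T cell receptor engagement in this time course. The comparison rests on 6 of the 24 libraries of the series, those labelled WT 1, WT 3 and WT 4 at 0 h and at 3 h, and each 3 h library was set against the 0 h library with the same mouse number. All mice were of the C57BL6 strain background. The WT mice carried no labelled gene change, and 12 libraries of the series came from Aim2-/- mice, which lack the cytosolic DNA sensor AIM2. Cells came from the spleen. They were kept in RP10 medium and received antibodies to CD3, a part of the T cell receptor complex, and to CD28, its main costimulatory receptor. By the general methods of the study, CD4+ T cells were enriched by immunomagnetic negative selection, anti-CD3 was bound to the plate and anti-CD28 was soluble. Those methods do not name the libraries of this time course. If they apply, the libraries hold naive, memory and regulatory CD4+ T cells together. The age and sex of the mice are not given in the labels. The 0 h cells are labelled as a control and no unstimulated cells kept in culture for 3 h are among the samples, so the effect of the antibodies and that of the hours in culture cannot be told apart. Each group holds 3 mice, and all values below carry this n unless another is given.

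Engagement of the T cell receptor activates kinases that open calcium channels and switch on the MAP kinase and NF-kB pathways. Calcium releases the NFAT factors into the nucleus, MAP kinases induce the FOS, JUN and EGR factors, and NF-kB subunits leave their cytoplasmic inhibitors. Together these factors start the transcription of cytokines such as IL-2, of cytokine receptors and of MYC, which drives growth before division. Naive and resting T cells keep factors such as KLF2, FOXO1 and TCF7 that maintain quiescence and direct the cells through lymph nodes, and these are known to be turned down on activation. Interferon gamma made by some of the cells can act on all of them through its receptor and factors of the STAT and IRF families.

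The 6 libraries held between 20400995 and 21087482 counts, so a gene with 3 counts lay between 0.139 and 0.155 CPM, the unit of level used here, a count scaled to a common library size with TMM factors. The first principal component of these libraries carried 50.4% of the variance and separated 0 h from 3 h. The second carried 22.7% and separated both libraries of mouse WT 1 from the others. Aim2 itself stood at 21.5, 75 and 67.5 CPM at 0 h and 17, 50.7 and 52.3 CPM at 3 h in mice WT 1, WT 3 and WT 4, and at 15.7, 20.1 and 19 CPM at 0 h and 14.6, 14.9 and 15.1 CPM at 3 h in mice Aim2-/- 1, 2 and 4. The level in the mouse labelled WT 1 was thus below those of the other WT mice and goes against its label, and the counts of gene lists are therefore also given without this mouse, as without mouse WT 3 or WT 4 or without the mouse as a block, where they moved by more than 1.5 times. Of the 11 CD4 T cell marker genes all were detected, with a summed level between 4970 and 6630 CPM in the 6 libraries; 7 of them fell and 1 rose, and the count of rises was 0 without mouse WT 1 or WT 3 and 2 without mouse WT 4. Those of CD8 T cells summed to 9.77 to 11.4 CPM. B cell markers, mostly Ighm, summed to 833, 639 and 407 CPM at 0 h and to 951, 474 and 320 CPM at 3 h, with the B cell surface gene Ms4a1 below 2 CPM in every library. Of 12 myeloid markers 5 fell and 1 rose. The count of falls was 8 without mouse WT 1, 2 without mouse WT 3 or WT 4 and 1 without the mouse as a block, and of these fits only that without mouse WT 1 had a rise, of 1 marker. Their sum was 51.7, 74 and 45.8 CPM at 0 h and 49.5, 45.9 and 28.8 CPM at 3 h. No neutrophil or platelet marker was called, 1 of 7 NK cell markers rose and 1 fell, and 1 of 6 basophil and mast cell markers and 1 of 8 erythroid markers rose, while 1 of 11 B cell markers fell. None of these single calls was kept without the mouse as a block. Without mouse WT 3 the NK cell and the basophil and mast cell rise were lost and 1 neutrophil marker rose, without mouse WT 4 the same rises were lost, and without mouse WT 1 2 NK cell markers fell. The sum of the NK cell list lay between 59.6 and 82.7 CPM in the 6 libraries. The part of these cells in the results below was not tested.

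At 3 h 6550 of the 15325 genes tested differed from 0 h (42.7%), 3254 of them higher (21.2%) and 3296 lower (21.5%), at an adjusted p under 0.05 in edgeR's quasi-likelihood F test with the mouse as a block. These are the genes called below, and "rose" and "fell" are used for them alone. Counts of list members below are to be read beside these shares of all genes. Without the mouse as a block 4992 genes were called, and without mouse WT 1 5296. In 6420 of the called genes all 3 mice moved in the same direction. The libraries of 0 h and 3 h did not overlap for 45.9% of all genes tested. Rises reached further than falls. Of the genes that rose 927 (6.05% of all tested) changed by more than 1 on the log2 scale, and 52 by more than 4, while of those that fell 593 (3.87%) passed 1 and 5 passed 4. In all 1520 genes (9.92%) were called past 1 in either direction. Some rises past 4 started at or near 0 CPM, where few counts limit the fitted fold. A630091E08Rik, for example, had 6.13 with 0 CPM at 0 h and 0.4053 CPM at 3 h. Among protein-coding genes past 1 the median level in the higher group was 10 CPM for rises and 33.7 CPM for falls. The balance of rises and falls depended on the scaling. With TMM factors 49.7% of the called genes rose, and with library totals alone 63.7% did, a shift of the median gene from 0.01 to 0.12 on the log2 scale. CPM are shares of a library, so neither scaling gives the amount of RNA per cell, and in these bulk samples fewer cells of a type and less RNA per cell cannot be told apart.

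**Figure D1:**
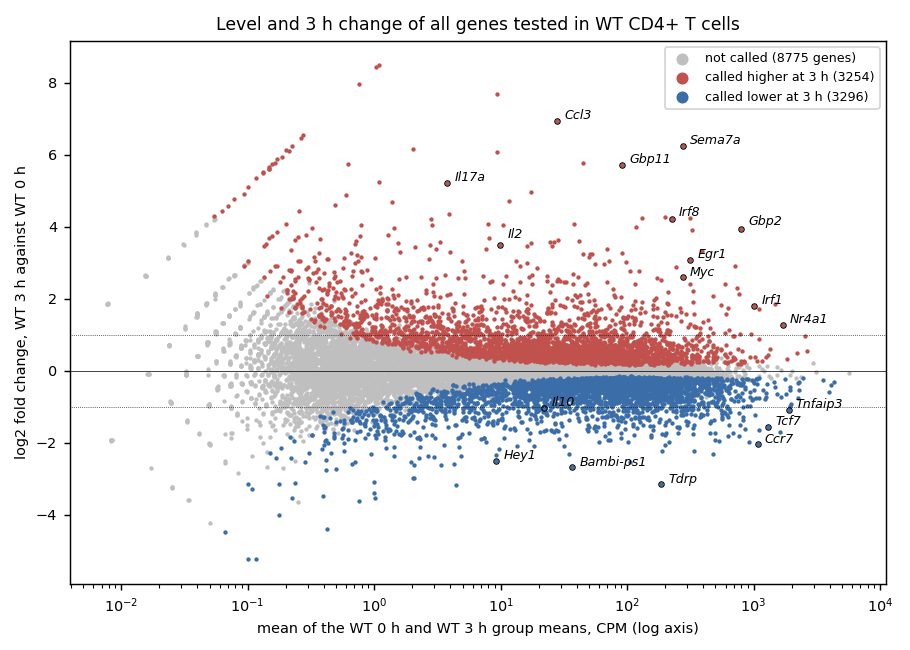
Each point is 1 of the 15325 genes tested, with the mean of its WT 0 h and WT 3 h levels in CPM on a log axis and its log2 fold change at 3 h on the vertical axis. Red and blue points are called genes, dotted lines mark a log2 fold change of 1 in either direction, and rows of points on the left are genes with few counts. The largest rise among the genes labelled, that of Ccl3 at 6.93, lies further from 0 than their largest fall, that of Tdrp at -3.16.

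Under the naming rule, which asks for at least 10 CPM and groups that do not overlap, the 12 largest rises lay between 4.07 and 6.93 on the log2 scale. Ccl3 (ENSMUSG00000000982, chromosome 11 from 83647844 to 83649355), a chemokine that attracts T cells and monocytes, lay at 0.50, 0.413 and 0.456 CPM at 0 h and 68.9, 51.1 and 47 CPM at 3 h. All 3 mice went from near the floor to well above it (log2 fold change 6.93, SE 0.4, edgeR adjusted p = 2.21e-11). Ccl4, its neighbour on chromosome 11 and a chemokine of the same kind, lay at 0.75, 2.38 and 1.67 CPM at 0 h and 117, 82.1 and 65.6 CPM at 3 h, with no overlap (log2 fold change 5.77, SE 0.37, edgeR adjusted p = 9.33e-11). Sema7a (ENSMUSG00000038264, chromosome 9 from 57940112 to 57962865) encodes a membrane-anchored semaphorin. Its level was 9.65, 6.2 and 5.58 CPM at 0 h and 551, 682 and 408 CPM at 3 h, with all 3 h libraries far above those of 0 h (log2 fold change 6.25, SE 0.33, edgeR adjusted p = 6.3e-12). Ccl1, the ligand of CCR8, reached 35.3 CPM in mouse WT 1 and 10.9 and 8.88 CPM in the other mice, from 0.25, 0.207 and 0.304 CPM (log2 fold change 6.07, SE 0.61, edgeR adjusted p = 6.71e-08). Hivep3, a large zinc finger protein that binds kappaB-like sites, rose from 12.8 ± 1.6 to 251 ± 84.9 CPM (SD), and Irf8, a transcription factor of the interferon regulatory family, from 23.3 ± 6.44 to 427 ± 78.4 CPM. Gbp11, annotated as a polymorphic pseudogene of the guanylate-binding protein family, went from 3.38 ± 1.13 to 181 ± 41.7 CPM. Il13, Il4 and Csf2, Socs1 and Iigp1 complete the 12 largest rises and are described with their groups.

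The falls under the same rule were smaller in fold. Tdrp (ENSMUSG00000050052, chromosome 8 from 13952008 to 13975032) lay at 272, 370.5 and 356 CPM at 0 h and 34.4, 36.9 and 40.1 CPM at 3 h. The 3 mice were within a narrow range at 3 h (log2 fold change -3.16, SE 0.14, edgeR adjusted p = 9.75e-13). Rflnb, encoding the actin regulator refilin B, stood at 662, 865 and 845 CPM at 0 h and 153, 166 and 154 CPM at 3 h (log2 fold change -2.32, SE 0.13, edgeR adjusted p = 2.19e-11). St8sia1, the sialyltransferase that makes the ganglioside GD3, was at 302, 316 and 313 CPM at 0 h and 59.2, 74.7 and 66.7 CPM at 3 h (log2 fold change -2.22, SE 0.13, edgeR adjusted p = 4.13e-11). In these genes every mouse lost most of its transcript share within 3 h. Fam78a went from 557 ± 69.8 to 118 ± 2.15 CPM. Arl5c, an ARF-like small GTPase, fell from 179 ± 17.9 to 31.1 ± 4.51 CPM and the pseudogene Bambi-ps1 from 63.8 ± 13.4 to 9.81 ± 2.05 CPM. Hey1, a transcriptional repressor that Notch induces, went from 15.8 ± 2.82 to 2.77 ± 0.434 CPM, and Dtx4, a Deltex ubiquitin ligase, from 58.1 ± 17.2 to 11.5 ± 1.74 CPM. The lysosomal protease Ctsf, the C2 domain protein Mctp2 and the sorting receptor Sorcs2 fell by 2.18, 2.1 and 2.35 on the log2 scale. The annotated span of Fam78a overlaps Nup214 on the other strand, and whether the counting used strand is not stated.

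**Figure D2:**
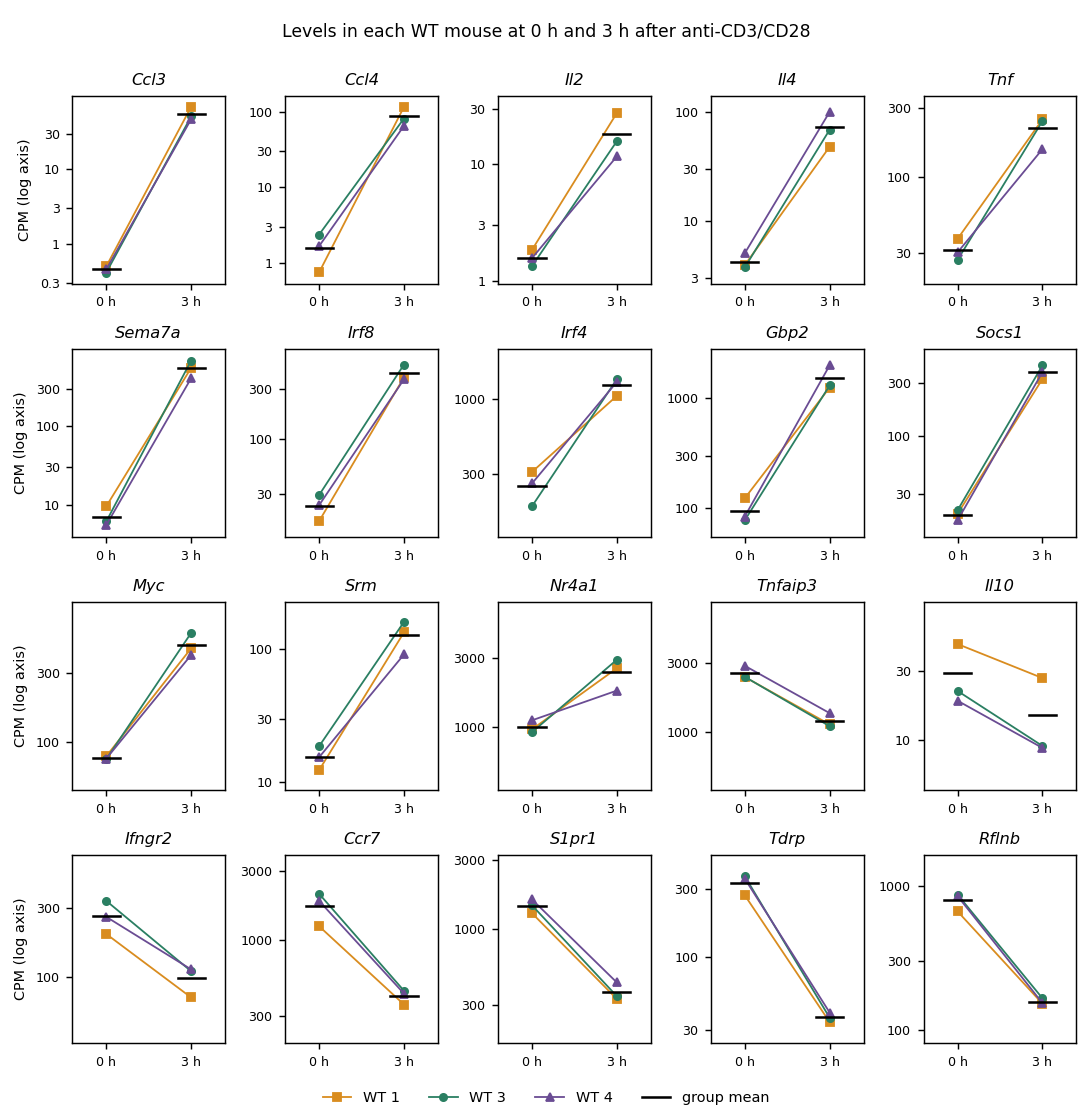
Levels of 20 genes in CPM on log axes at 0 h and 3 h, with 1 line for each WT mouse and a black bar at the mean of the 3 mice; axis ranges differ between panels. All lines of Ccl3 and Gbp2 climb and all lines of Ccr7 and Tdrp fall, while for Il10 mouse WT 1 lies above the other mice at both times, so the groups overlap although each mouse fell.

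Among the chemokines, which recruit other immune cells, 11 of 16 genes tested rose and 1, Ccl5, fell, against 21.2% and 21.5% of all genes. Their median log2 fold change was 2.57, beside 0.01 for all genes tested. It was 1.83 with genes at 3 counts or fewer in every library of a group set at their lower bound. Xcl1, which attracts cross-presenting dendritic cells, was among the rises, as were the CXCR3 ligands Cxcl9, Cxcl10 and Cxcl11, which interferon gamma is known to induce. Cxcl10 lay at 20.4, 10.1 and 14.5 CPM at 0 h and 92.9, 56 and 86.3 CPM at 3 h (log2 fold change 2.39, SE 0.26, edgeR adjusted p = 1.79e-07). Cxcl9 went from 0.287 ± 0.0544 to 5.37 ± 0.857 CPM and Cxcl11, absent at 0 h, reached 0.327 CPM, at least 2.14-fold above 3 counts per library. Ccl5, a chemokine of memory and effector cells, fell by 0.51 (edgeR adjusted p = 0.00758). This fall was lost without mouse WT 3 and without the mouse as a block (edgeR adjusted p 0.125). Several of these chemokines are also products of myeloid cells, whose marker sum was higher at 0 h than at 3 h in each mouse, as given above.

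Of 25 cytokine genes tested 13 rose and 2 fell (1 without the mouse as a block), with a median of 1.65. Il2, the growth factor of T cells, lay at 1.85, 1.34 and 1.57 CPM at 0 h and 27.4, 15.7 and 11.7 CPM at 3 h. It rose in every mouse (log2 fold change 3.49, SE 0.25, edgeR adjusted p = 4.57e-10), but its level was still low beside those of later hours, 66 ± 13.7 CPM at 6 h and 145 ± 5.47 CPM at 24 h. The type 2 cytokines rose as well: Il4 lay at 3.9, 3.72 and 5.02 CPM at 0 h and 47.8, 68.4 and 99.9 CPM at 3 h, highest in mouse WT 4 (log2 fold change 4.07, SE 0.23, edgeR adjusted p = 1.47e-11), and Il13 at 0.40, 1.4 and 0.913 CPM at 0 h and 29.6, 18.4 and 19.2 CPM at 3 h, highest in mouse WT 1 (log2 fold change 4.71, SE 0.42, edgeR adjusted p = 1.45e-08). Il5 rose by 1.56 with overlapping groups (edgeR adjusted p = 0.000256, adjusted p 0.304 without the mouse as a block). Csf2, which encodes GM-CSF, was at 0.60, 0.569 and 1.57 CPM at 0 h and 11.3, 13.4 and 20.0 CPM at 3 h (log2 fold change 4.07, SE 0.22, edgeR adjusted p = 1.16e-11). For the type 1 cytokine Ifng the values were 16.1, 9.82 and 15.9 CPM at 0 h and 69.3, 34.2 and 42 CPM at 3 h (log2 fold change 1.8, SE 0.25, edgeR adjusted p = 5.64e-06). Tnf was at 37.4, 26.7 and 30.1 CPM at 0 h and 249.6, 243 and 156 CPM at 3 h (log2 fold change 2.78, SE 0.16, edgeR adjusted p = 2.19e-11), and its neighbour on chromosome 17, Lta, went from 22.3 ± 1.04 to 86.3 ± 12.5 CPM. Il17a, the cytokine of the Th17 lineage, stood at 0.15, 0.31 and 0.101 CPM at 0 h and 12.5, 5.34 and 4.25 CPM at 3 h, more than in the others in mouse WT 1 (log2 fold change 5.21, SE 0.42, edgeR adjusted p = 3.07e-09), and Il17f moved by 3.48. Lif went from 25.8 ± 5.66 to 183 ± 49.1 CPM. Il3 had no count in the 0 h libraries and 2.2 CPM at 3 h, at least 14.5-fold above 3 counts per library. The cytokines that fell were Il16 (from 511 ± 40.6 to 273 ± 18 CPM) and Il10, which restrains inflammation. Il10 lay at 46.4, 22 and 18.8 CPM at 0 h and 27, 9.16 and 8.88 CPM at 3 h; each mouse fell but the groups overlapped (log2 fold change -1.04, SE 0.21, edgeR adjusted p = 0.000347, 0.184 without the mouse as a block). Il21, a product of follicular helper cells, stood at 17.4 ± 11 CPM at 0 h and 13.1 ± 6.84 CPM at 3 h and was not called (edgeR adjusted p = 0.19).

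The immediate early transcription factors, which are induced without new protein synthesis, did not move as 1 group. Of 23 members 13 rose and 7 fell (4 without mouse WT 4), with a median of 0.54. The EGR family rose. Egr1 lay at 64.5, 65.1 and 70.8 CPM at 0 h and 583, 698 and 419 CPM at 3 h, with mouse WT 4 lowest at 3 h (log2 fold change 3.07, SE 0.16, edgeR adjusted p = 5.96e-12), and Egr2 went from 126 ± 30.8 to 358 ± 95.4 CPM while Egr3 went from 96 ± 27.9 to 302 ± 84.7 CPM. Atf3 went from 31.4 ± 8.01 to 129 ± 18.8 CPM and Fosl1, which encodes FRA1, from 0.504 ± 0.348 to 6.17 ± 1.95 CPM. The nuclear receptor Nr4a1 was already at 959.5, 917 and 1108 CPM at 0 h and reached 2536, 2905 and 1778 CPM (log2 fold change 1.27, SE 0.16, edgeR adjusted p = 1.48e-06). Nr4a3 held 1212 ± 125 CPM at 0 h and 1324 ± 242 CPM at 3 h and was not called (edgeR adjusted p = 0.519). Members of the AP-1 family went in different directions. Fosb was at 118, 105 and 123 CPM at 0 h and 49.7, 46.3 and 50.9 CPM at 3 h (log2 fold change -1.23, SE 0.14, edgeR adjusted p = 4.36e-07). Fosl2 and Junb fell by 0.98 and 0.79, Jun rose by 0.62, and Fos stood at 84.5 ± 7.71 CPM at 0 h and 77 ± 6.66 CPM at 3 h with no call (edgeR adjusted p = 0.333). Klf6 fell from 577 ± 78 to 274 ± 55.6 CPM. Among the related BATF, MAF and BACH factors 4 of 12 rose and 2 fell (1 without the mouse as a block): Batf rose from 38.5 ± 5.6 to 68.5 ± 12.3 CPM and Maf fell from 111 ± 39.7 to 82.8 ± 40.1 CPM (edgeR adjusted p 0.452 without the mouse as a block). Batf2 had no count in the 0 h libraries and at least 13.5 times the level of 3 counts at 3 h.

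Regulators that feed back on these pathways were also divided. Of 15 genes of MAP kinase feedback 4 rose and 7 fell, while 4 rose and 4 fell without the mouse as a block. Dusp6, a phosphatase of ERK, lay at 20.4, 19.2 and 22.3 CPM at 0 h and 93.6, 86.8 and 59.2 CPM at 3 h (log2 fold change 1.94, SE 0.18, edgeR adjusted p = 2.28e-08), and the RAS pathway inhibitors Spry1 and Spred1 rose from 48.6 ± 15.5 to 138 ± 55.7 CPM and from 10.8 ± 1.95 to 29.7 ± 4.33 CPM. Dusp1, a nuclear phosphatase of several MAP kinases, was at 311, 262 and 314 CPM at 0 h and 137, 96.7 and 101 CPM at 3 h, lower at 3 h in every mouse (log2 fold change -1.42, SE 0.1, edgeR adjusted p = 4.57e-10), and Dusp10 went from 441 ± 60.4 to 226 ± 25.6 CPM. Of 18 NF-kB subunits and inhibitors 4 rose (22.2%) and 6 fell (33.3%), beside 21.2% and 21.5% of all genes tested. With library totals alone 6 rose and 6 fell. Tnfaip3, which encodes the ubiquitin-editing inhibitor A20, was at 2419, 2426 and 2891 CPM at 0 h and 1137, 1105 and 1361 CPM at 3 h (log2 fold change -1.1, SE 0.08, edgeR adjusted p = 4.49e-10), and Tnip1, its binding partner, at 440.3 ± 22.4 CPM at 0 h and 206 ± 28.6 CPM at 3 h. Nfkb1 rose from 1108 ± 75.8 to 1507 ± 118 CPM. Nfkbid stood at 423, 435 and 419 CPM at 0 h and 560.2, 611 and 418 CPM at 3 h and was not called (edgeR adjusted p = 0.0627), and it was called without mouse WT 4. Of 18 genes of the NFAT and calcium pathway 2 rose and 8 fell, with 1 rise without mouse WT 3 and 5 with library totals alone. Nfatc1, the NFAT gene known for autoinduction, rose by 0.54 (edgeR adjusted p = 0.000966, a call lost without mouse WT 3), and Nfatc2 and Nfatc3 fell from 164 ± 17.2 to 65.8 ± 3.98 CPM and from 503 ± 42.6 to 274 ± 22.1 CPM. The calcium sensor of the endoplasmic reticulum, Stim1, fell from 252 ± 28.4 to 126 ± 8.07 CPM. Of 13 anergy and ubiquitin regulators 4 rose and 5 fell, Egr2 and Egr3 among the rises and Dtx1 (by 1.21) among the falls.

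Genes of the interferon response rose together. The GTPases that interferon gamma induces, which attack the vacuoles of intracellular parasites, had 16 members tested, and 16 of 16 rose, with a median of 2.64. Each had no overlap between the 6 libraries, and 16 of 16 were called higher without mouse WT 1. Their summed level was 1700, 1410 and 1630 CPM at 0 h in mice WT 1, WT 3 and WT 4 and 7510, 8450 and 11200 CPM at 3 h. Gbp2 (ENSMUSG00000028270, chromosome 3 from 142620602 to 142638008), a guanylate-binding protein, lay at 124, 78 and 84.4 CPM at 0 h and 1237, 1292 and 1964 CPM at 3 h (log2 fold change 3.94, SE 0.2, edgeR adjusted p = 5.96e-12). Gbp5, its neighbour on chromosome 3, lay at 51.8, 32.2 and 36.4 CPM at 0 h and 503, 532 and 808 CPM at 3 h (log2 fold change 3.9, SE 0.2, edgeR adjusted p = 5.96e-12). Of the immunity-related GTPases, Iigp1 went from 30.5 ± 9.79 to 596 ± 197 CPM, Irgm1 from 188 ± 32.5 to 990.3 ± 146 CPM and Igtp from 284 ± 27.9 to 1250.0 ± 216 CPM. Gbp9, with the smallest change of the list, went from 127 ± 19.2 to 288 ± 65.8 CPM (log2 fold change 1.14, SE 0.15, edgeR adjusted p = 1.83e-06). The members lie in clusters: Gbp2, Gbp3, Gbp5 and Gbp7 on chromosome 3, Gbp4, Gbp6, Gbp8, Gbp9 and Gbp10 on chromosome 5, and Irgm1, Tgtp1, Tgtp2, Ifi47, Igtp and Irgm2 on chromosome 11, with Iigp1 apart from them. Neighbours in these families are similar in sequence and some annotated spans overlap, as those of Igtp and Irgm2 do, so the split of reads between them is uncertain.

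Promoter windows of 300 bases, 250 before to 50 after the RefSeq start (GRCm38.p6), are shown for 5 genes of this response and for Il2, since these genes rose together and letters known to be bound by STAT and IRF factors occur in several of them. Capitals mark matches, on either strand, to the GAS letters (TTCNNNGAA), to the ISRE, and to the letters of NFAT (TGGAAA), of AP-1 (TGANTCA), of EGR factors (GCGNGGGCG) and of the TATA box (TATAAA), and matches may overlap. Of 32851 promoters of this length 8.3% held the GAS letters, 3.44% the ISRE letters, 21.4% NFAT, 7.81% AP-1, 5.55% EGR and 13.6% TATA. The windows shown were chosen partly for their letters, so they cannot be tested against these shares. Other genes that rose, such as Ifi47 and Cxcl9, had neither GAS nor ISRE letters before the start. The E-box (CACGTG) and a fixed set of NF-kB letters were also searched. They were in 7.15% and 1.63% of all promoters and in none of these 6 windows. Other forms of the NF-kB motif were not searched, so the windows may still hold them.
Irf1, chr11:53769764-53770063, plus strand: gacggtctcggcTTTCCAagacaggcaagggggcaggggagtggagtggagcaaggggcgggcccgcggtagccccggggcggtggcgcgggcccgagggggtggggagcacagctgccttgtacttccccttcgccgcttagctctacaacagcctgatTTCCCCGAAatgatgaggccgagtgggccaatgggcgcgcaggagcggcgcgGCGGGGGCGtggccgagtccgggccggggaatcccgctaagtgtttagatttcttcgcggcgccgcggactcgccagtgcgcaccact
Gbp2, chr3:142620413-142620712, plus strand: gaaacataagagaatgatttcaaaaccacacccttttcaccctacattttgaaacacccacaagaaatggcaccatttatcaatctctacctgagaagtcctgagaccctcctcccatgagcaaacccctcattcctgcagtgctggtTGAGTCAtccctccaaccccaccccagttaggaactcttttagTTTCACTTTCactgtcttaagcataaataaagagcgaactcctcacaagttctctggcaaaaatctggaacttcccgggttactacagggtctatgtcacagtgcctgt
Igtp, chr11:58199306-58199605, plus strand: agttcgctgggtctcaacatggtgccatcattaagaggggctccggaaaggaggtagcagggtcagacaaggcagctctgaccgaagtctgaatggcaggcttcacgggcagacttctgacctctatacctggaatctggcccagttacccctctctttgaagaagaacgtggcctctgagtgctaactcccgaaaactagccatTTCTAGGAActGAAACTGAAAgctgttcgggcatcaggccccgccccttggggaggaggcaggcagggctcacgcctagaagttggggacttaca
Irgm2, chr11:58214727-58215026, plus strand: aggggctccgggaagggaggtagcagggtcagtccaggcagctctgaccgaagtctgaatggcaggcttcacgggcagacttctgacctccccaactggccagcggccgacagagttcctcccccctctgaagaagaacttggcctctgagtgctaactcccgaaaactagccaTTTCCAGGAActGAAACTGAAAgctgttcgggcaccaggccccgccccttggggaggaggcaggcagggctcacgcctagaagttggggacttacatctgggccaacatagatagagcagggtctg
Socs1, chr16:10785487-10785786, minus strand: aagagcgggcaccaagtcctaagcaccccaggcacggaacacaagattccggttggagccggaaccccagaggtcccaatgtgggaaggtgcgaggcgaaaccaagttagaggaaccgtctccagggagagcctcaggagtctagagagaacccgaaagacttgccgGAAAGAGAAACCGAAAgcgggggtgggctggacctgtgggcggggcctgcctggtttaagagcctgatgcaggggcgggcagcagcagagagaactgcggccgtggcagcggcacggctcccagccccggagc
Il2, chr3:37125905-37126204, minus strand: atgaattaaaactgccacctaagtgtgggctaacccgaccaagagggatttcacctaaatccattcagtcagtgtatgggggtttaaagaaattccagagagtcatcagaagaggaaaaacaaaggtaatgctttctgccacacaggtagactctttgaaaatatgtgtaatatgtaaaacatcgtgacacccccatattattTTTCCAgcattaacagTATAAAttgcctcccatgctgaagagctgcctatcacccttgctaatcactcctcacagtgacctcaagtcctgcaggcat
In the Irf1 window the GAS letters begin 90 bases before the start, with EGR letters at 38. The Gbp2 window has ISRE letters 59 and AP-1 letters 102 bases before it. Igtp and Irgm2 carry GAS followed by ISRE letters, beginning 45 and 34 bases before the start in Igtp and 75 and 64 in Irgm2, and their windows share an identical run of 61 bases that begins after these letters. Socs1 has overlapping ISRE letters at 83 and 77. The Il2 window holds NFAT letters 47 and TATA letters 31 bases before the start and neither GAS nor ISRE letters. NFAT letters also begin 238 bases before the start in Irf1 and 76 in Irgm2. A match of letters is a description of the window and not a measured site. RefSeq windows were found for 69.2% of the genes tested, too few to compare groups of genes.

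Transcription factors that act in the interferon response changed too, 9 of 15 IRF and STAT genes rising and 2 falling. Irf1, which activates interferon-induced genes, lay at 408, 450.1 and 487 CPM at 0 h and 1318, 1627 and 1759 CPM at 3 h (log2 fold change 1.8, SE 0.08, edgeR adjusted p = 1.72e-12). Irf4, which T cell receptor signals induce in proportion to their strength, was at 312, 181 and 260.0 CPM at 0 h and 1048, 1365 and 1308 CPM at 3 h, a rise in every mouse (log2 fold change 2.31, SE 0.17, edgeR adjusted p = 4.8e-10). Irf8 stood at 16.6, 29.5 and 23.6 CPM at 0 h and 389.6, 517 and 374 CPM at 3 h (log2 fold change 4.2, SE 0.25, edgeR adjusted p = 3.11e-11); it is also a gene of B cells and myeloid cells, whose marker sums are given above. Stat2 went from 117 ± 3.17 to 406 ± 105 CPM and Irf7 from 81 ± 15.4 to 240.2 ± 85.2 CPM, and Stat5a and Stat5b, which transmit IL-2 and IL-7 signals, fell by 0.53 and 0.63. Of 24 genes known as type I interferon-stimulated 18 rose and none fell (median 1.24). Usp18, a brake of the interferon receptor, was at 9.1, 7.39 and 12.9 CPM at 0 h and 66.6, 70.7 and 152 CPM at 3 h, highest in mouse WT 4 (log2 fold change 3.24, SE 0.13, edgeR adjusted p = 3.2e-13), and Oas2, a sensor of double-stranded RNA, at 10.8, 5.69 and 10.8 CPM at 0 h and 56.9, 50.5 and 166 CPM at 3 h (log2 fold change 3.15, SE 0.23, edgeR adjusted p = 7.86e-10). Zbp1 went from 53.6 ± 9.24 to 318 ± 98.1 CPM and Ifit3, of the IFIT family, from 4.32 ± 1.15 to 28.9 ± 19.6 CPM. Mx1 and Rsad2, antiviral effectors, were not called, with 3.71 ± 1.46 CPM at 0 h and 4.28 ± 1.38 CPM at 3 h for Mx1 and 5.41 ± 2.33 CPM at 0 h and 4.46 ± 1.98 CPM at 3 h for Rsad2 (edgeR adjusted p = 0.38 and 0.355). Of 11 SOCS and PIM genes 5 rose and 1 fell (none without the mouse as a block). Socs1, the inhibitor of JAK kinases, lay at 19.8, 21.3 and 17.3 CPM at 0 h and 325, 431 and 375 CPM at 3 h (log2 fold change 4.26, SE 0.22, edgeR adjusted p = 5.96e-12). Cish, a STAT5 target that dampens IL-2 signals, went from 139.6 ± 16.4 to 522 ± 61.7 CPM and the kinase gene Pim2 from 50.1 ± 4.31 to 139.6 ± 30.0 CPM, while Pim1 stood at 712 ± 43.8 CPM at 0 h and 704 ± 43.9 CPM at 3 h and Socs3 at 336 ± 34.6 CPM at 0 h and 346 ± 42.9 CPM at 3 h, neither of them called (edgeR adjusted p = 0.901 and 0.882).

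**Figure D3:**
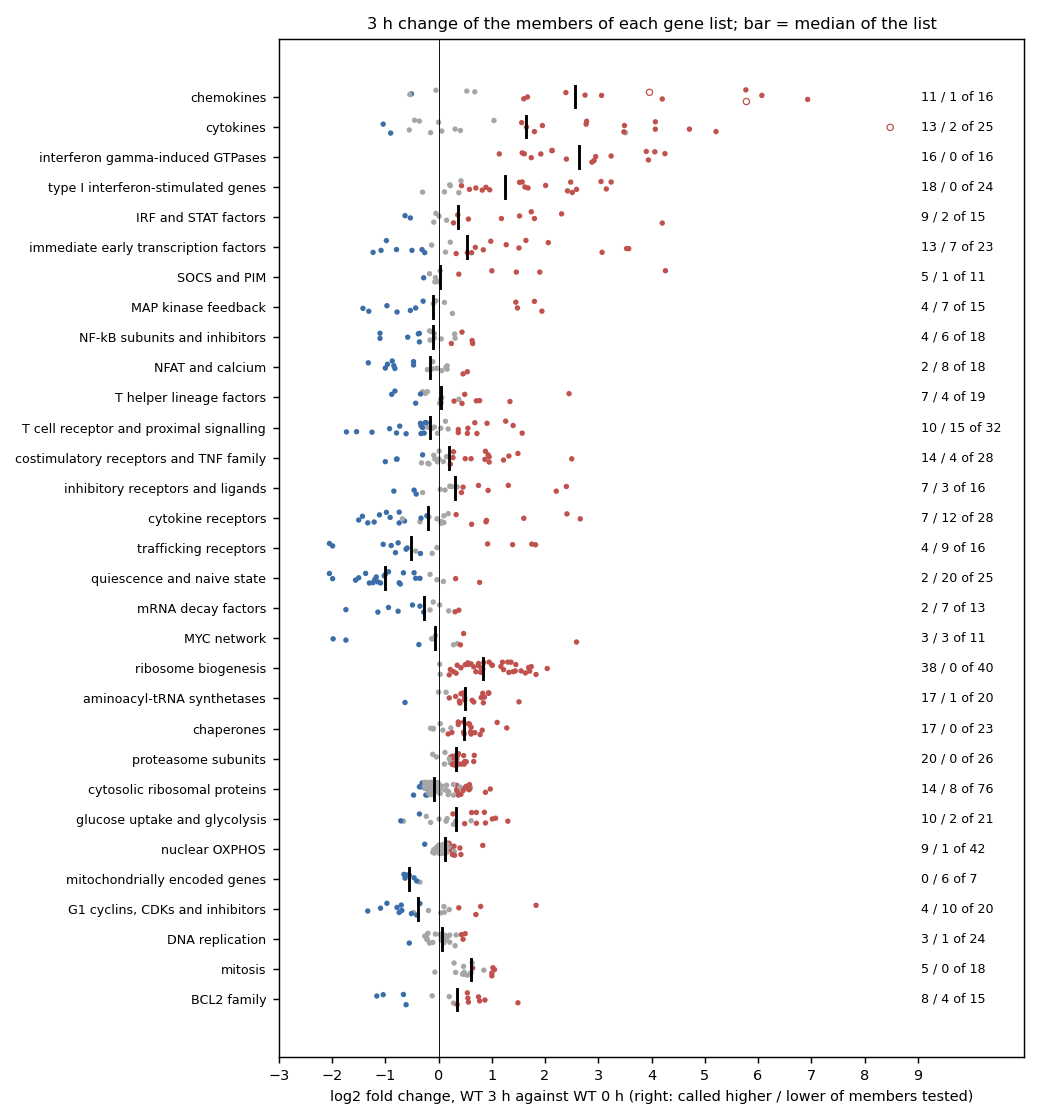
Log2 fold changes at 3 h of the members of 31 gene lists, 1 point per gene, in red where called higher, blue where called lower and grey where not called. Open circles are genes with at most 3 counts in every library of 1 group, whose fitted values depend on the prior count. Bars are list medians, and the counts on the right give members called higher and lower of those tested. All members of the interferon gamma-induced GTPases lie to the right of 0 and 20 of the 25 quiescence genes are called to its left, while the NF-kB and MAP kinase feedback lists spread to both sides.

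Receptors on the cell surface changed in both directions. Of 28 cytokine receptor genes 7 rose and 12 fell, with a median of -0.2. Il2ra, the high-affinity chain of the IL-2 receptor, was at 92.6, 84.6 and 124 CPM at 0 h and 457, 566 and 567 CPM at 3 h (log2 fold change 2.41, SE 0.14, edgeR adjusted p = 1.75e-11). Il15ra went from 4.88 ± 1.79 to 30.6 ± 3.28 CPM and Il12rb1, a chain of the IL-12 receptor, from 8.17 ± 2.12 to 25 ± 9.8 CPM. Il4ra rose by 0.89 (edgeR adjusted p = 3.9e-07). The receptors for interferon gamma fell while the genes it induces rose: Ifngr2 was at 197, 334 and 259 CPM at 0 h and 71.7, 109 and 112 CPM at 3 h (log2 fold change -1.43, SE 0.13, edgeR adjusted p = 2.07e-08) and Ifngr1 went from 1173 ± 177 to 702 ± 113 CPM. Tgfbr2, the TGF-beta receptor, fell from 778 ± 107 to 338 ± 46.3 CPM. Il7r, through which IL-7 keeps resting T cells alive, was at 969, 895 and 973 CPM at 0 h and 313, 309.7 and 384 CPM at 3 h (log2 fold change -1.5, SE 0.14, edgeR adjusted p = 2.82e-08). Of 28 costimulatory receptors and TNF family members 14 rose and 4 fell; 10 rose without mouse WT 1, and 2 fell without the mouse as a block. Tnfsf14, which encodes LIGHT, went from 8.98 ± 2.65 to 50.3 ± 9.62 CPM, Slamf1 from 90.1 ± 12.9 to 257 ± 50.2 CPM and Tnfrsf9, which encodes 4-1BB, from 211 ± 31.8 to 489 ± 43.1 CPM. Cd69, an early marker that retains cells in lymphoid tissue, rose from 296 ± 50.2 to 580.4 ± 87.4 CPM, and Cd40lg, the signal to B cells, from 108 ± 25.3 to 199 ± 43.5 CPM. Cd28, the receptor of the stimulating antibody, was at 599.6, 456 and 555 CPM at 0 h and 265, 289 and 253 CPM at 3 h (log2 fold change -1.0, SE 0.11, edgeR adjusted p = 1.77e-07). Of 16 inhibitory receptors and ligands 7 rose and 3 fell, with 1 fall without mouse WT 1 and likewise without the mouse as a block. Cd274, the gene of PD-L1, lay at 132, 101 and 123 CPM at 0 h and 496, 558 and 599 CPM at 3 h (log2 fold change 2.21, SE 0.12, edgeR adjusted p = 1.1e-11), Cd160 went from 3.37 ± 1.51 to 17.4 ± 2.41 CPM and Cd200 from 28.4 ± 9.16 to 70.3 ± 16.5 CPM, and Ctla4 fell from 414 ± 77.7 to 231 ± 41.3 CPM (edgeR adjusted p = 4.74e-06). Pdcd1, encoding PD-1, rose by 0.43 (edgeR adjusted p = 0.00136, 0.212 without the mouse as a block), with overlapping groups and mouse WT 1 highest at both times.

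The T cell receptor and its proximal signalling had 10 members that rose and 15 that fell of 32, and 12 that rose and 9 that fell with library totals alone. Lcp2, which encodes the adaptor SLP-76, was at 319, 272 and 320.1 CPM at 0 h and 902, 997 and 808 CPM at 3 h (log2 fold change 1.57, SE 0.1, edgeR adjusted p = 1.59e-10). Ptpn6, the phosphatase SHP-1, rose from 74.7 ± 4.05 to 179 ± 16.8 CPM, and the related phosphatases of the UBASH3 family moved apart: Ubash3a fell from 225 ± 40.0 to 77.2 ± 6.51 CPM and Ubash3b rose from 62.3 ± 16.2 to 169.5 ± 66.3 CPM. Rasgrp2, an activator of RAP1 that prepares integrins, was at 319.6, 436 and 408 CPM at 0 h and 99.8, 123 and 127 CPM at 3 h (log2 fold change -1.73, SE 0.11, edgeR adjusted p = 9.85e-11). The co-receptor gene Cd4 fell from 899.7 ± 26 to 549 ± 87 CPM, and Cd3d fell by 0.33, whereas Cd247, the zeta chain, rose by 0.37.

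Of 19 lineage factors of T helper cells 7 rose and 4 fell (2 without the mouse as a block). Tbx21, which encodes T-bet of Th1 cells, was at 26.2, 17.4 and 20.6 CPM at 0 h and 113, 130.4 and 108 CPM at 3 h (log2 fold change 2.45, SE 0.21, edgeR adjusted p = 8.51e-09). Gata3, the Th2 factor, rose from 97.6 ± 8.13 to 159.9 ± 14.4 CPM. Foxp3, which defines regulatory T cells, lay at 112, 85 and 117 CPM at 0 h and 261, 209 and 329 CPM at 3 h, higher at 3 h in every mouse (log2 fold change 1.34, SE 0.14, edgeR adjusted p = 1.7e-07). Rora and Runx3 fell by 0.88 and 0.82. Of the 14 genes that the study names from a published single-cell signature of regulatory T cells 7 rose and 1 fell. The study gives these genes as examples, so the list may not hold the whole signature. Without mouse WT 1 5 rose, and without the mouse as a block 3. Il2ra, Tnfrsf9 and Capg led the rises, with 2.41, 1.22 and 0.94, and activated CD4+ T cells are known to express the first of these genes as well. Ikzf2, encoding Helios, stood at 179 ± 65.2 CPM at 0 h and 142 ± 37.2 CPM at 3 h with no call (edgeR adjusted p = 0.0637).

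Genes of quiescence and the naive state fell, 20 of 25 with 2 rises and a median of -1.0. Ccr7, the receptor that guides T cells into lymph nodes, lay at 1254, 2101 and 1877 CPM at 0 h and 361, 449 and 429.5 CPM at 3 h, lowest at 0 h in mouse WT 1 (log2 fold change -2.05, SE 0.1, edgeR adjusted p = 1.7e-12). S1pr1, the receptor by which they leave, was at 1297, 1470.0 and 1614 CPM at 0 h and 331, 346 and 430.5 CPM at 3 h (log2 fold change -1.99, SE 0.14, edgeR adjusted p = 3.34e-10). The transcription factor gene Tcf7 was at 1727, 2078 and 1997 CPM at 0 h and 708, 649 and 612 CPM at 3 h (log2 fold change -1.56, SE 0.11, edgeR adjusted p = 4.28e-10). Its partner Lef1 went from 699.8 ± 152 to 269 ± 45.4 CPM, Klf2, which maintains S1pr1 expression, from 785 ± 96.3 to 347 ± 31.3 CPM, and Foxo1 from 429.6 ± 19.8 to 216 ± 19.8 CPM. Txnip, an inhibitor of glucose uptake, went from 1097 ± 99.2 to 543 ± 47.2 CPM. The exceptions were Bach2, which rose from 154 ± 13.7 to 266 ± 77.6 CPM, and Slfn2, which rose by 0.32. Of 16 trafficking receptors 4 rose and 9 fell (4 without the mouse as a block). Ccr4, a receptor of skin-homing cells, rose from 31.5 ± 11.3 to 110.1 ± 11.6 CPM, Gpr183, which senses oxysterols, from 78.8 ± 3.42 to 268 ± 49.5 CPM, and Cxcr4 fell by 0.89 (edgeR adjusted p 0.0624 without the mouse as a block). Of 14 integrins 1 rose, Itgb3 from 96.5 ± 17.8 to 178 ± 51.3 CPM, and 4 fell, with Itgb7 the largest fall at -0.64. Without mouse WT 1 and with library totals alone 2 integrins rose and 2 fell, and without the mouse as a block 1 rose and 2 fell. Of 15 brakes of PI3K and mTOR signalling 3 rose and 8 fell, Sesn1 from 164 ± 23.3 to 58.5 ± 8.26 CPM and Pik3ip1 from 185 ± 36.6 to 75.7 ± 13.3 CPM. Of 13 mRNA decay factors, which shorten the life of cytokine transcripts, 2 rose and 7 fell; none rose without mouse WT 3 and 1 rose without mouse WT 4 or without the mouse as a block. Zfp36l2 was at 652, 778 and 841 CPM at 0 h and 222, 223 and 233 CPM at 3 h (log2 fold change -1.74, SE 0.1, edgeR adjusted p = 1.16e-11), while Zfp36, which encodes tristetraprolin, rose by 0.38 (edgeR adjusted p = 0.00302), a call lost without mouse WT 3.

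Genes of ribosome biogenesis and Myc, which drives growth, rose. Myc was at 80.0, 76.5 and 77 CPM at 0 h and 446, 569 and 401 CPM at 3 h, almost equal between mice at 0 h (log2 fold change 2.59, SE 0.14, edgeR adjusted p = 8.01e-12). Of the 11 MYC network genes 3 rose and 3 fell, and the falls included antagonists of MYC: Mxd4 was at 323, 326 and 372 CPM at 0 h and 99.3, 74.5 and 87.3 CPM at 3 h (log2 fold change -1.98, SE 0.12, edgeR adjusted p = 3.04e-11) and Mxi1 went from 137 ± 5.3 to 41.2 ± 4.39 CPM. Of 40 genes of ribosome biogenesis 38 rose and none fell (median 0.84), and 33 were called higher without mouse WT 1. Rrp1b, a nucleolar processing factor, was at 34.5, 36.4 and 33.7 CPM at 0 h and 142, 183 and 109.5 CPM at 3 h (log2 fold change 2.04, SE 0.14, edgeR adjusted p = 4.51e-10). Nop2, an rRNA methyltransferase, went from 59.2 ± 7.54 to 198 ± 37.1 CPM, Polr1b, a subunit of RNA polymerase I, from 40.4 ± 2.72 to 132 ± 30.1 CPM, and nucleolin, Ncl, from 1054 ± 63.5 to 1619 ± 216 CPM. In these 4 genes mouse WT 4 had the lowest 3 h level. The cytosolic ribosomal proteins themselves did not share this pattern and had a median of -0.09. Of 76 genes 14 rose (18.4%, beside 21.2% of all genes) and 8 fell (10.5%, beside 21.5%). Without mouse WT 1 the counts were 9 and 20, without mouse WT 3 3 and 2, without mouse WT 4 9 and 3, and without the mouse as a block 8 and 1. Many of these genes have processed copies in the genome that can share reads. Of 28 translation initiation factors 18 rose (11 without mouse WT 3) and 4 fell (2 without mouse WT 4 and 1 without the mouse as a block), led by Eif2b3 (1.52), and of 20 aminoacyl-tRNA synthetases 17 rose and 1 fell. Wars, the tryptophan enzyme and an interferon gamma-induced gene, rose from 52.6 ± 3.4 to 150.2 ± 15.5 CPM, and Eprs, the glutamate and proline enzyme, was the 1 that fell (from 507 ± 282 to 313 ± 60.4 CPM, edgeR adjusted p 0.0734 without the mouse as a block), which was not called without mouse WT 3 or WT 4 either.

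Metabolic genes moved in both directions. Shmt1, the cytosolic serine hydroxymethyltransferase, was at 6.25, 6.88 and 5.53 CPM at 0 h and 81, 98 and 50.9 CPM at 3 h (log2 fold change 3.6, SE 0.2, edgeR adjusted p = 1.17e-11), and the mitochondrial enzymes Shmt2 and Mthfd2 rose, the one from 64.9 ± 7.81 to 160.0 ± 31.5 CPM and the other from 34.2 ± 3.58 to 81.6 ± 8.84 CPM. The list of ATF4 and serine synthesis genes that holds them had 7 rises and 3 falls of 17 (1 fall without mouse WT 4 or without the mouse as a block), with Atf4 at 358 ± 7.32 CPM at 0 h and 391 ± 39.4 CPM at 3 h (edgeR adjusted p = 0.283). In polyamine synthesis 3 of 11 rose and 5 fell. Without mouse WT 1 4 rose and 3 fell, without the mouse as a block 3 did each, and with library totals alone 4 rose and 2 fell. Spermidine synthase, Srm, lay at 12.3, 18.6 and 15.4 CPM at 0 h and 134, 160.5 and 91.3 CPM at 3 h (log2 fold change 3.05, SE 0.18, edgeR adjusted p = 3.49e-11), while ornithine decarboxylase, Odc1, the first enzyme of the path, fell from 730.4 ± 73.1 to 530.5 ± 17.1 CPM (edgeR adjusted p = 0.000661). Of 14 amino acid transporters 5 rose and 4 fell, with Slc7a1 at 1.12 and Slc1a5 at 1.06 against Slc43a2, which went from 94.8 ± 6.17 to 24.6 ± 4.42 CPM. Of 21 genes of glucose uptake and glycolysis 10 rose and 2 fell. The hexokinase genes Hk2 and Hk1 rose, the one from 6.36 ± 0.586 to 15.9 ± 4.06 CPM and the other from 143 ± 1.94 to 289 ± 15.5 CPM, and Slc16a3, which exports lactate, fell by 0.71. Of 42 nuclear OXPHOS genes 9 rose (21.4%) and 1 fell (2.38%), beside 21.2% and 21.5% of all genes tested. Without mouse WT 1 3 rose, likewise 3 without mouse WT 3 and 4 without the mouse as a block, and with library totals alone 22 rose. The 1 fall was lost under each of these and without mouse WT 4. Of 13 mitochondrially encoded genes 7 were tested, and 6 of these fell (median -0.55). The falls were 3 without mouse WT 3, 2 without the mouse as a block and 4 with library totals alone. Counts assigned to mitochondrial genes were 1.54% to 2.05% of all counts at 0 h and 1.22% to 1.41% at 3 h. The genes not tested include mt-Co2, mt-Co3 and mt-Atp6, so these shares may miss part of the mitochondrial transcripts. In sterol and fatty acid synthesis 11 of 21 rose and 3 fell, among the rises Sqle, an enzyme of cholesterol synthesis, by 1.4. The rises were 7 without mouse WT 1 or WT 3 and 6 without mouse WT 4. Chaperones had 17 rises (10 without mouse WT 3) and no fall among 23, with Hsph1 at 1.28 and the mitochondrial Hspd1 at 1.1, and Hspa5, the chaperone of the endoplasmic reticulum, stood at 901 ± 91.6 CPM at 0 h and 950.1 ± 53.4 CPM at 3 h (edgeR adjusted p = 0.563). Proteasome subunits had 20 rises and no fall among 26, with small changes (median 0.33), and 13 were called higher without mouse WT 1.

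Of 24 genes of DNA replication 3 rose and 1 fell (12.5% and 4.17%), beside 21.2% and 21.5% of all genes tested. Of 18 mitosis genes 5 rose (27.8%) and none fell, with a median of 0.6. This count depended on the fit: 2 rose without the mouse as a block, 11 with library totals alone and 16 with the 6 libraries alone. In the list of G1 cyclins, kinases and inhibitors 4 of 20 rose (20%) and 10 fell (50%). The falls were 6 without mouse WT 4 or without the mouse as a block. With library totals alone 6 rose and 5 fell. Ccnd2, the cyclin that T cells induce on entry to the cycle, was at 222, 242 and 270.5 CPM at 0 h and 787, 1012 and 809 CPM at 3 h (log2 fold change 1.83, SE 0.14, edgeR adjusted p = 2.14e-09). The inhibitor Cdkn1b, p27, fell from 405 ± 28.8 to 190.3 ± 15.2 CPM, and the later cyclin Ccne2 fell by 1.33. In the BCL2 family 8 of 15 rose and 4 fell (2 without the mouse as a block). The survival genes Bcl2, Mcl1 and Bcl2l1 rose from 98.4 ± 6.43 to 284 ± 86.8 CPM, from 654 ± 22 to 976 ± 143 CPM and by 0.77 on the log2 scale. The genes that fell were Bbc3, Bmf, Pmaip1 and Bcl2l11, BH3-only genes that promote death, by 1.16, 1.04, 0.66 and 0.61 (Bmf and Pmaip1 with edgeR adjusted p of 0.111 and 0.159 without the mouse as a block), while Bid, another BH3-only gene, and Bax, which promotes death too, rose by 0.87 and 0.75.

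Genes that changed by more than 1 on the log2 scale also differed in length and class, given here as a description. Protein-coding genes that rose had a median annotated span of 18.8 kb (749 genes) and those that fell one of 32 kb (501 genes), beside 23.3 kb for the 12654 protein-coding genes tested. Long intergenic RNAs made up 5.39% of these rises, 2.53% of these falls and 2.55% of all genes tested, and antisense genes 3.88%, 2.7% and 2.26%.

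The later hours show which of the 3 h changes lasted. These comparisons share the mice, and those with 0 h share its libraries. Sema7a was at 419 ± 15.5 CPM at 6 h and 70.1 ± 7.36 CPM at 24 h, Egr1 at 554 ± 55.9 CPM at 6 h and 185 ± 3.91 CPM at 24 h and Nr4a1 at 1728 ± 137 CPM at 6 h and 201 ± 12.4 CPM at 24 h. Of these Nr4a1 was lower at 6 h than at 3 h (log2 fold change -0.47, SE 0.16, edgeR adjusted p = 0.0221). Irf1 was lower again at 6 h (log2 fold change -0.76, SE 0.08, edgeR adjusted p = 5.21e-07), and so was Irgm1 (log2 fold change -0.77, SE 0.09, edgeR adjusted p = 2.12e-06), whereas Gbp2 was not called between 3 h and 6 h (log2 fold change 0.39, SE 0.18, edgeR adjusted p = 0.0993). Ccl3 and Il2 went on to rise from 3 h to 6 h (log2 fold change 1.88, SE 0.22, edgeR adjusted p = 1.67e-06, and log2 fold change 1.88, SE 0.17, edgeR adjusted p = 8.22e-08), as did Srm (log2 fold change 1.21, SE 0.16, edgeR adjusted p = 5.96e-06) and Shmt1 (log2 fold change 1.45, SE 0.16, edgeR adjusted p = 7.35e-07). Irf8 fell to 276 ± 20.2 CPM at 6 h (log2 fold change -0.62, SE 0.21, edgeR adjusted p = 0.0271) and stood at 721 ± 7.36 CPM at 24 h. Tnfaip3 and Dusp1 fell further from 3 h to 6 h (log2 fold change -1.07, SE 0.08, edgeR adjusted p = 7.76e-09, and log2 fold change -1.3, SE 0.1, edgeR adjusted p = 1.94e-08). Hk2, 53.8 ± 3.57 CPM at 6 h and 148 ± 12.2 CPM at 24 h, and Mcm10, 4.81 ± 2.56 CPM at 6 h and 196 ± 13.2 CPM at 24 h, had their highest mean at 24 h.

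**Figure D4:**
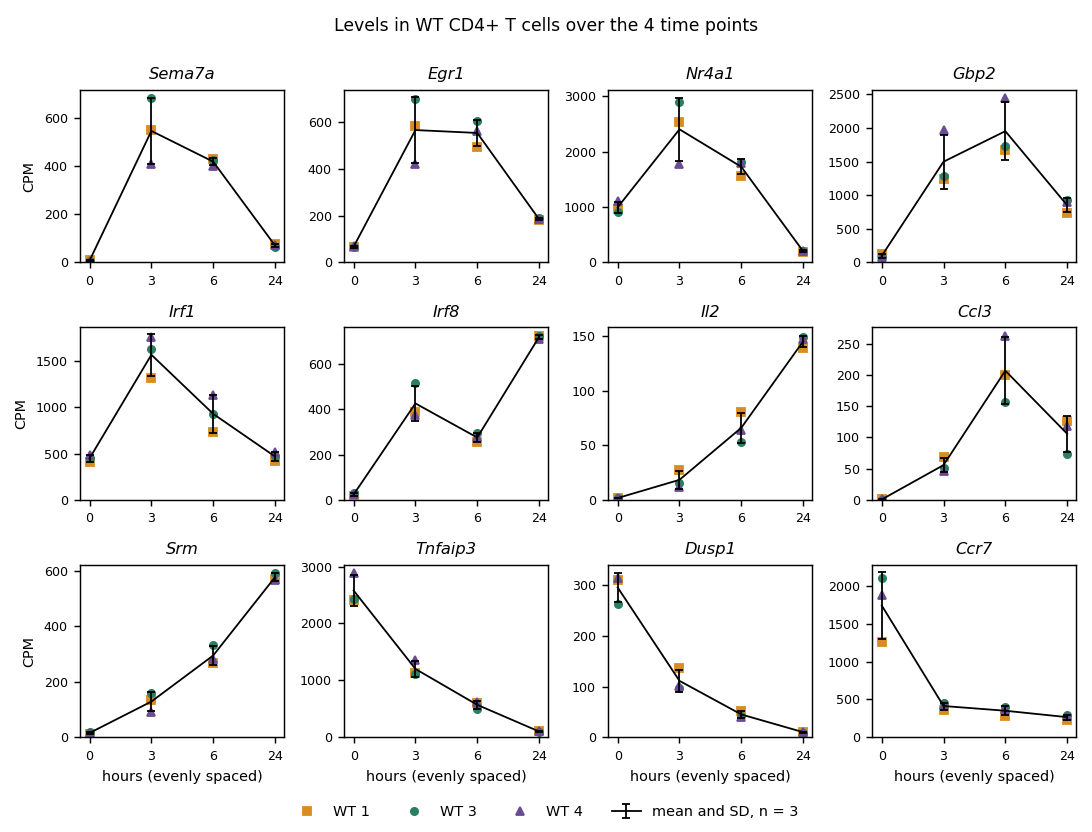
Levels of 12 genes in CPM on linear axes in the WT libraries at 0, 3, 6 and 24 h (time points evenly spaced), with 1 point per mouse and the mean with its SD (n = 3) as a line. Sema7a, Egr1, Nr4a1 and Irf1 have their highest mean at 3 h, Gbp2 and Ccl3 at 6 h and Il2, Irf8 and Srm at 24 h, while Tnfaip3, Dusp1 and Ccr7 are lower at each later time.

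The 3 h response of WT mice was set against that of the 3 Aim2-/- mice by the interaction of genotype and stimulation. It was called for 9 of 15325 genes (0.0587%), and 1244 genes lay below 0.05 by unadjusted p. In each of the 9 the response was lower in Aim2-/- mice, and they include Irf1, Igtp, Irgm2, Tgtp2 and Gm12250, which lies near Igtp on chromosome 11. Irgm2 lay at 123, 146 and 173 CPM at 0 h and 344, 433 and 544 CPM at 3 h in WT mice and at 141, 199 and 189 CPM at 0 h and 262, 312 and 282 CPM at 3 h in mice Aim2-/- 1, 2 and 4. It rose in both genotypes, by 1.57 in WT and 0.7 in Aim2-/- mice, a difference of -0.87, SE 0.13, edgeR adjusted p = 0.0106. Irf1 was at 458, 497 and 532 CPM at 0 h and 915, 1199 and 1238 CPM at 3 h in the Aim2-/- mice and rose by 1.8 in WT and 1.17 in Aim2-/- mice (-0.63, SE 0.12, edgeR adjusted p = 0.0498). Over the 16 interferon gamma-induced GTPases the difference was negative in 16 of 16 genes, with a median of -0.59, beside 7665 of 15325 genes and a median of 0.0 for all. Other lists were one-sided as well: the difference was negative in 23 of 23 chaperones (median -0.16), 21 of 23 immediate early factors (-0.49), 16 of 17 genes of ATF4 and serine synthesis (-0.26), 21 of 24 replication genes (-0.13) and 16 of 18 mitosis genes (-0.19). The mitochondrially encoded genes went the other way, with 0 of 7 negative and a median of 0.44. The median response of the 16 GTPases per mouse was 2.26, 2.83 and 2.78 in mice WT 1, WT 3 and WT 4. In mice Aim2-/- 1, 2 and 4 it was 1.74, 2.26 and 2.0. WT 1, whose Aim2 level goes against its label, had the same value as Aim2-/- 2 in this list. In other lists, such as the immediate early factors, WT 1 had the highest median response of the WT mice. A link between the Aim2 level of WT 1 and its response was not tested. Tnf rose by 2.78 in WT and 1.67 in Aim2-/- mice, and its difference was not called (-1.1, SE 0.22, edgeR adjusted p = 0.0736). The count of 9 was 0 without the mouse as a block (653 genes at an unadjusted p below 0.05), likewise 0 without mouse WT 3, WT 4 or Aim2-/- 4 (874, 1436 and 1182 genes), and 31 without mouse WT 1.

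**Figure D5:**
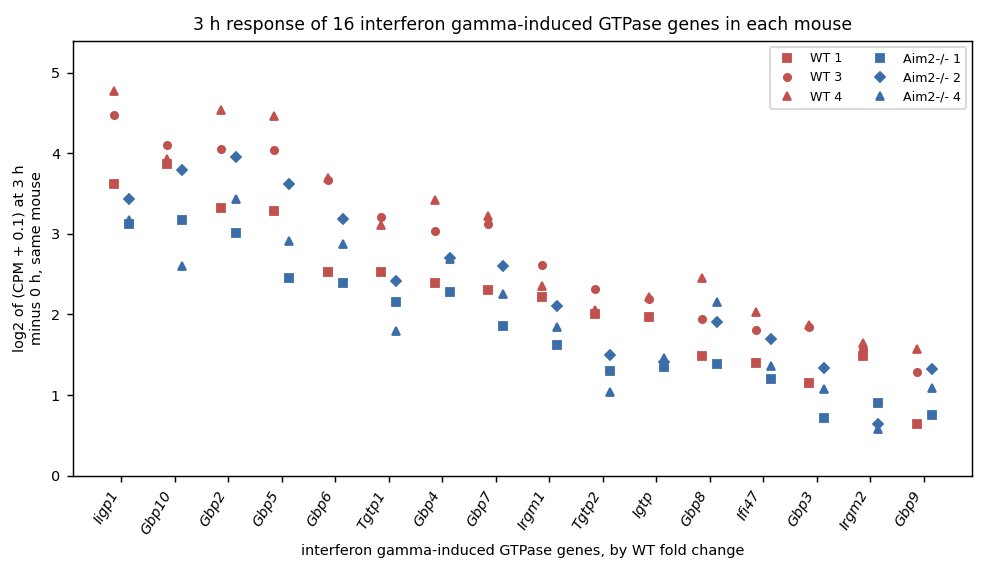
The 3 h response, the difference of log2(CPM + 0.1) between 3 h and 0 h of the same mouse, of 16 interferon gamma-induced GTPase genes, in the 3 WT mice (red) and the 3 Aim2-/- mice (blue). All values are above 0; the Aim2-/- points lie below all WT points for Irgm2, Igtp and Tgtp2 and overlap them for Gbp9, and mouse WT 1 is the lowest of the WT mice in all 16 genes.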

How the data were processed

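Total RNA of CD4+ T cells was made into stranded mRNA libraries. The deposited table holds raw counts per gene, made by the authors with STAR on GRCm38, before any normalization; the submitters' notes also name DESeq2 and edgeR, without versions. Whether counting used strand is not given in the sources used here. Here all 24 libraries were fitted with edgeR 4.0.16 (R 4.3.3; quasi-likelihood F test, two-sided, TMM scaling, filterByExpr with a minimum count of 10), with 1 coefficient per group and time and the mouse as a block, and Benjamini-Hochberg adjustment over the 15325 genes tested of 54446 in the table. A gene was called at an adjusted p under 0.05. SE were taken from the fold change and its F statistic. CPM use TMM-scaled totals, and SD are over 3 mice. The replicates are separate mice by the labels.

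The mouse numbers were checked to pair libraries by deviations of log2 CPM from the group mean. Those of the same WT mouse at 0 h and 3 h correlated at 0.302 to 0.475 (3 pairs). Those of different mice correlated at -0.361 to 0.0142 (6 pairs). Deviations in a group of 3 sum to 0, so the values of different mice are not independent of those of the same mouse. The fit was tested on simulated data. Alternatives were no block, fewer libraries, other size factors, DESeq2 1.42.0, limma-voom (limma 3.58.1), other filters and leaving out each mouse. Of 54446 identifiers 54409 matched GENCODE vM21, from which symbols and GRCm38 coordinates came, and promoter windows came from RefSeq.

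Genes named were the 12 largest rises and 12 largest falls among called genes with no overlap, 1 direction in all mice, at least 10 CPM and a symbol that is no clone name, the up to 4 most changed members of each list, a set of anchor genes, Aim2 and the genes with the lowest adjusted p in the interaction. Atf4, Batf2, Bax, Bcl2l1, Bcl2l11, Ccl5, Cd247, Cd3d, Cxcl10, Cxcl11, Cxcr4, Dusp10, Eprs, Fos, Fosb, Fosl2, Foxo1, Gata3, Gbp9, Hspa5, Ifngr1, Ifngr2, Ikzf2, Il10, Il16, Il17f, Il21, Il3, Il5, Irf7, Irgm1, Jun, Junb, Klf6, Lef1, Lif, Lta, Mcl1, Mcm10, Mx1, Ncl, Nfatc1, Nfkb1, Nr4a3, Pdcd1, Pim1, Pmaip1, Polr1b, Ptpn6, Rsad2, Slc16a3, Slfn2, Socs3, Stat5a, Stat5b, Tgfbr2, Txnip, Zbp1 and Zfp36 were chosen after their values were seen. Results for some genes of these sets are not reported here. The members and lists were chosen with earlier results of these data known.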

Additional observations from a re-analysis of the deposited data

Results flagged for a closer look

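Of the 9 genes for which the 3 h response differed between Aim2-/- and WT mice by the interaction term, with a lower response in Aim2-/- mice in 9 of 9, Irgm2 and Irf1 are given with the comparison above. Values below are the difference of the log2 fold changes, Aim2-/- minus WT, with its SE, and n = 3 mice per genotype. Gm12250 went from 13.7 ± 2.66 to 222 ± 75.2 CPM in WT mice, and its response was 3.98 there and 2.61 in Aim2-/- mice (-1.37, SE 0.18, edgeR adjusted p = 0.00386). For Igtp the responses were 2.13 and 1.41 (-0.71, SE 0.12, edgeR adjusted p = 0.0244) and for Tgtp2, a GTPase of the same family, 2.13 and 1.28 (-0.84, SE 0.14, edgeR adjusted p = 0.0244). Irgm2 differed by -0.87 and Irf1 by -0.63. H2-T23, the gene of the nonclassical MHC molecule Qa-1, had 1.25 and 0.52 (-0.73, SE 0.13, edgeR adjusted p = 0.0265). Il4ra rose by 0.89 in WT mice and changed by 0.05 in Aim2-/- mice (-0.85, SE 0.14, edgeR adjusted p = 0.0244), and the kinase gene Pim2 had 1.46 and 0.72 (-0.74, SE 0.14, edgeR adjusted p = 0.0498).

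Igkv15-103, an immunoglobulin light chain gene of B cells, had 4.9, 0.93 and 1.77 CPM at 0 h and 14.9, 1.65 and 2.99 CPM at 3 h in the WT mice, and mouse WT 1 was the highest at both times. Its responses were 1.2 and -0.72 (-1.91, SE 0.36, edgeR adjusted p = 0.0498), and without mouse WT 1 the adjusted p was 0.315. The other 8 genes were called without mouse WT 1, with edgeR adjusted p between 0.00266 and 0.0289. None of the 9 was called without mouse WT 3 or mouse WT 4.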

How the results depend on the processing

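The count of genes called at 3 h, 6550 in edgeR's test, was between 4992 and 6656 under the other designs, scalings, filters and tools, and between 4836 and 5420 when 1 WT mouse was left out. The count past a log2 fold change of 1, 1520, was between 1230 and 1585 under all of these. The count of genes whose response differed between genotypes moved more: 9 became 0 without the replicate block, 50 with DESeq2, 198 with no filter on low counts, 5 with a mean of at least 1 CPM, and between 0 and 31 when 1 mouse of either genotype was left out. The cause was not tested. The pairing of libraries by mouse as a block raised both counts. Over 2241 values of the genes named, 2198 kept direction and call, 25 lost the call, 12 gained it and 6 changed sign, each of the last in a gene not called. Pim1 had 0.01 with the 6 libraries alone and 0.09 with library totals. With 1 mouse left out Hspa5 had between -0.06 and 0.13, Nr4a3 between -0.1 and 0.28, Mcm10 between -0.03 and 0.31 and Socs3 between -0.13 and 0.1. Of 1200 counts of list members 130 moved by more than 1.5 times, 31 of them of 100 without the block. At 3 counts, 0.139 to 0.155 CPM, genes near 0 at 0 h have folds that depth limits.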
